A study of Mus musculus with 6 samples.

Results

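Bone morphogenetic proteins (BMPs), transforming growth factor beta (TGF-beta) and activins are secreted dimers of 1 protein family. Each binds a pair of type I and type II receptor kinases on the cell surface, and the type I receptor then phosphorylates receptor-regulated Smads, which join *Smad4* and act on genes in the nucleus. Smad1, Smad5 and Smad9 carry the BMP signal, and Smad2 and Smad3 carry the TGF-beta and activin signal. In bone, BMPs drive the differentiation of osteoblasts, the cells that form bone, while TGF-beta is stored in the matrix in a latent form and is released when osteoclasts resorb it. The present account covers 51 genes of this pathway, taken by name as its ligands, receptors, Smads, secreted antagonists and Id target genes, of 55401 genes counted. The list was drawn up by gene name and role, with earlier results of these data known.

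The 6 libraries were made from tibias of male mice at 8 weeks of age, 3 of the genotype *Osterix-Cre; Atrxf/y* (Atrx-cKO) and 3 *Atrxf/y* controls that carry the floxed *Atrx* allele without the Cre transgene. *Atrx* encodes a chromatin remodeler. *Osterix-Cre* is a recombinase driven by the promoter of *Osterix* (*Sp7*), which is active in preosteoblasts, and it is shut off by doxycycline, which was given until 3 weeks of age. The presence of the transgene and the loss of *Atrx* therefore cannot be told apart in this design. Whole tibia was ground, so recombined osteoblastic cells were read together with marrow, vessels, cartilage and adhering muscle, and fewer cells of a type cannot be told apart from less RNA per cell.

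Between 50977777 and 70571655 reads per library were counted on genes, and a count of 0 allows at most 0.0450 to 0.0630 CPM (counts scaled to the TMM library size), for counting error only. The floxed *Atrx* transcript is not separated in counts over the whole gene, and *Atrx* had 163 ± 9.53 CPM in Atrx-cKO and 169 ± 4.98 in control libraries (SD, n = 3 each), which gives no check of the genotypes. Defining markers of bone were present in all 6 libraries. The summed CPM of the osteoblast markers was 62348 to 62707 in Atrx-cKO and 57833, 99230 and 89042 in control replicates 1, 2 and 3. Most of it was *Col1a1* alone, at 57530 to 58131 CPM in Atrx-cKO and 53518, 92464 and 82583 CPM in control. *Bglap*, *Ibsp*, *Sp7*, *Alpl* and *Runx2* were also each highest in control replicates 2 and 3. The summed chondrocyte markers had 3939, 7331 and 6397 CPM in control replicates 1, 2 and 3, beside 3632 to 4077 CPM in Atrx-cKO. Nearly all of that sum was *Col11a1* and *Col2a1*, while the cartilage genes *Col10a1*, *Matn3* and *Col9a1* were at 31.3, 2.27 and 9.67 CPM or less in every library, each highest in Atrx-cKO replicate 3 and next in control replicate 3. On both sums control replicates 2 and 3 lay above the other 4 libraries, and control replicate 3 stood apart by its skeletal muscle markers, at 10564 CPM against 631 to 2156 CPM in the other 5 libraries. Control replicate 1 had the highest summed erythroid markers, at 2269 CPM against 894 to 1827 CPM in the other 5 libraries. Its summed megakaryocyte markers were also the highest, at 1638 CPM against 869 to 1469 CPM. Differential expression was tested by quasi-likelihood in edgeR across 20636 genes that passed its filter on low counts, and p-values were adjusted by the Benjamini-Hochberg method over all of them. The smallest p that an exact permutation test allows for 3 libraries in each group is 0.1.

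No gene of the pathway passed the test between Atrx-cKO and control tibias. Of the 51 genes, 49 had enough reads to be tested, and 0 of these 49 had an adjusted p under 0.05, where 0.0145% of all genes tested did. At an unadjusted p under 0.05 in this edgeR fit, the co-receptor *Eng* and the target gene *Id2* were higher in Atrx-cKO and no member was lower. Of all genes, 3.64% had such a p in either direction (1.59% higher and 2.05% lower). These member counts changed under other edgeR settings, as given at the end. DESeq2 likewise called 0 members at an adjusted p under 0.05 (0.188% of all genes) and gave 5 an unadjusted p under 0.05 (4.35% of all genes), of which *Eng* and *Id2* were higher and *Tgfb2*, *Inhbb* and *Chrd* were lower in Atrx-cKO. The lowest adjusted p of any member was 0.992 in the edgeR fit.

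The differences that the libraries allow were small for most of the pathway. The log2 fold changes (Atrx-cKO minus control) ran from -0.59 for *Tgfb2* to 0.51 for *Id4*. Of these, 21 were positive and 28 negative, beside 10572 positive and 10064 negative over all genes tested. The median was -0.014 against 0.0050 over all genes tested. The estimate was within 1.2-fold for 43 of the 49 members, or 87.8%, against 74.7% of all genes tested. No member reached a log2 fold change of 1 in size. The 95% interval of the difference lay within 2-fold either way for 47 of the 49, the exceptions being *Tgfb2* and *Id4*, and within 1.5-fold for 39. The standard error had a median of 0.13 and ranged from 0.068 to 0.36, against a median of 0.17 over all genes tested. The share of all genes within 1.2-fold thus comes from less precise estimates than the members' share. In 3 members, *Eng*, *Id1* and *Id2*, every Atrx-cKO library lay above every control library, and in none did every one lie below, beside 8.31% of all genes with groups that did not overlap (4.3% with Atrx-cKO above and 4.01% below).

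**Figure D1:**
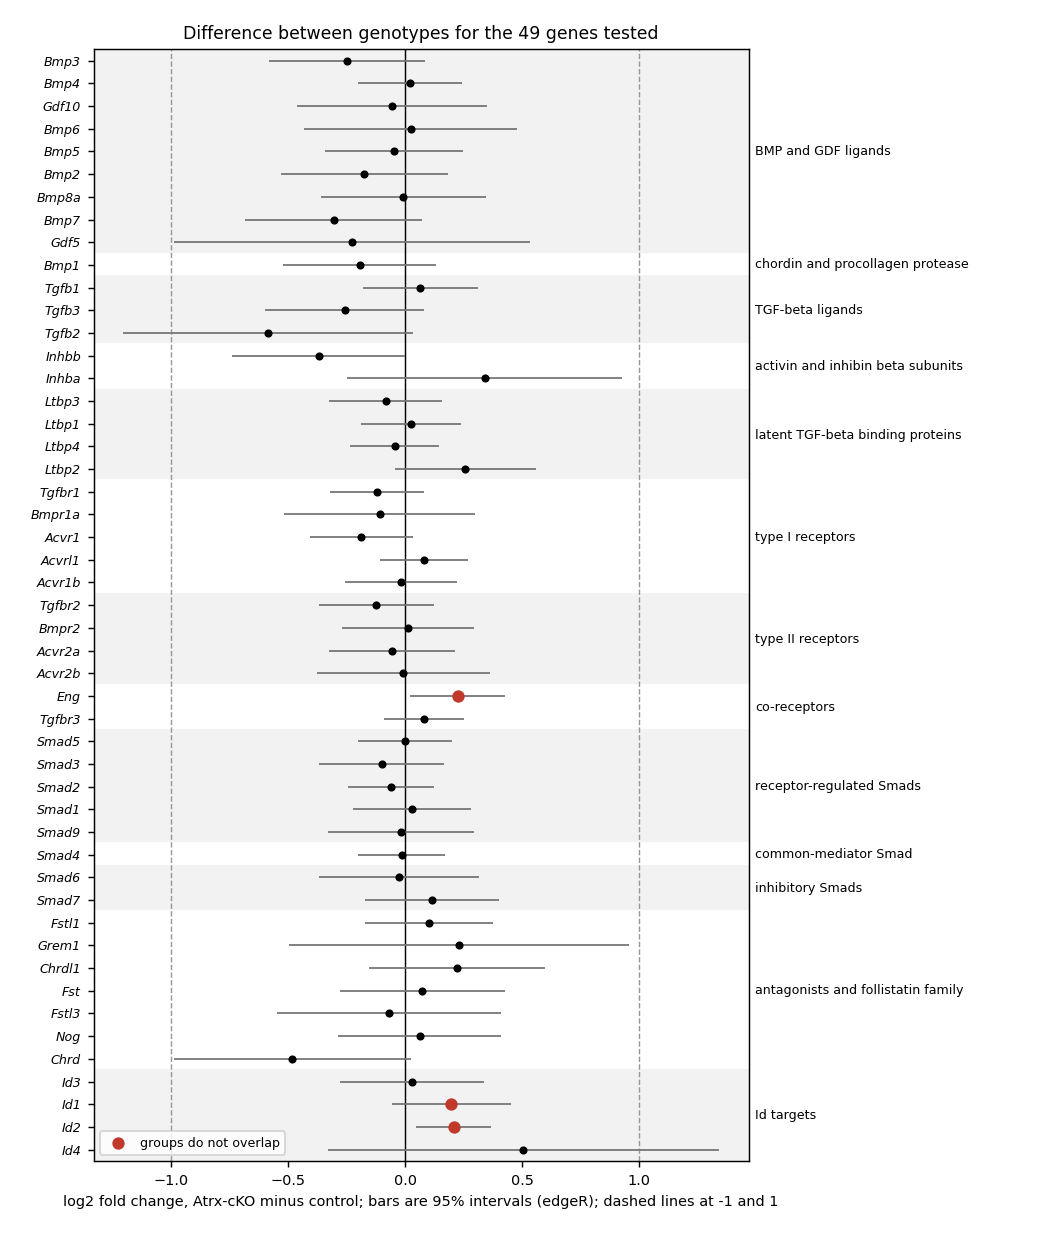
Log2 fold change of each of the 49 genes tested (Atrx-cKO minus control, horizontal axis), with its 95% interval from edgeR as a bar, grouped by role. Points run from -0.59 (*Tgfb2*) to 0.51 (*Id4*), the 3 large red points are the genes whose groups did not overlap, and the dashed lines stand at -1 and 1.

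For the genes whose groups did not overlap and for the most variable member of their family, sequence before the transcription start that RefSeq gives on GRCm38.p6 is shown for reference. Of the 51 genes, 35 had an entry in the RefSeq promoter table used here. The letters GGCGCC, a GC-rich element known as a BMP-responsive Smad site, and CAGACA or its complement TGTCTG, which holds the Smad box, were searched on both strands in the 250 bases before each start. The capitals mark GGCGCC, which reads alike on both strands. The *Eng* stretch is chr2:32646345-32646594 on the plus strand, the *Id2* stretch is chr12:25096254-25096342 on the minus strand and is limited to its bases outside annotated exons, and the *Id4* stretch is chr13:48260866-48261115 on the plus strand.
Eng: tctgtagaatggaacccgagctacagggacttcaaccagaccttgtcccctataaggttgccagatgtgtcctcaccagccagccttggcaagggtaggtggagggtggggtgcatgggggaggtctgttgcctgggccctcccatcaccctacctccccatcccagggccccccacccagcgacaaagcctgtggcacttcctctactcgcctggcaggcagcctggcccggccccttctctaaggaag
Id2: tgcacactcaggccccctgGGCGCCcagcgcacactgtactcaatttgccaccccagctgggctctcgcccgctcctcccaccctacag
Id4: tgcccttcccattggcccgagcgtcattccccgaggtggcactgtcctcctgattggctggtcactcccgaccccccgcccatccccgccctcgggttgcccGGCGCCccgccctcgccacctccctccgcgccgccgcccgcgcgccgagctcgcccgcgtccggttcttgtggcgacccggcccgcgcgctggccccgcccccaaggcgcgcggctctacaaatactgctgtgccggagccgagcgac

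The match lies 231 bases before the RefSeq start in *Id2* and 148 bases before it in *Id4*, and the *Eng* window holds neither motif. Among the windows of the pathway's genes, 11 of 43 (25.6%) held GGCGCC, from 10 genes, against 9.59% of the 32851 windows in the table. CAGACA or TGTCTG was in 6 of the 43 (14.0%), against 17.1% of all. The members' windows were also richer in G and C, with a median of 66.4% against 52.4%, and the part of base composition in the GGCGCC share was not tested. The RefSeq start of *Id2* lies inside the gene as GENCODE M21 draws it, from 25093799 to 25097140, so the *Id2* stretch and its match are intronic by that annotation. *Id1* had no entry.

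The pathway was well expressed in tibia. Levels of different genes are given as CPM per kilobase of exon. The median level of the 49 tested members was 11.9, against 3.49 over all genes tested, and 45 of the 49 lay above the latter. Only *Id3* was above 100, another 28 members lay between 10 and 100, 19 lay between 1 and 10, and *Gdf5*, *Gdf6* and *Bmpr1b* were under 1. Within each role, the gene with the highest mean level ranked first in 6 of 6 libraries, except *Inhbb*, which was first in 5 of 6.

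**Figure D2:**
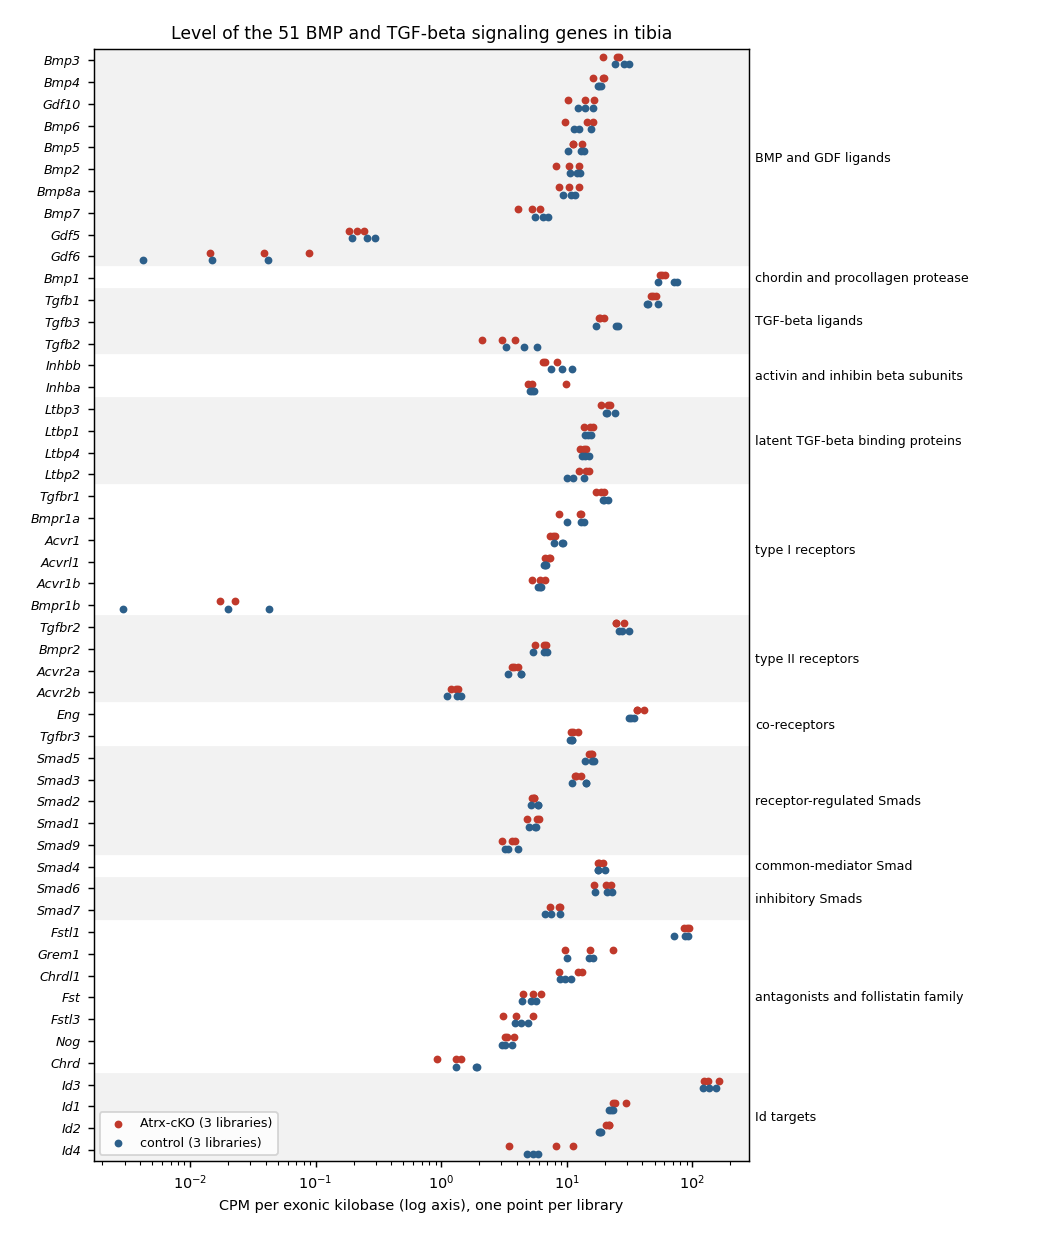
Level of each of the 51 genes in each library, as CPM per exonic kilobase on a log axis, grouped by role, with Atrx-cKO in red and control in blue. Most genes lie between 1 and 100 and the genotypes lie close together within each gene, and *Bmpr1b* in Atrx-cKO replicate 2 is not drawn because its count was 0.

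*Bmp3*, which antagonizes other BMPs in bone, was the most abundant BMP or GDF ligand (ENSMUSG00000029335, chromosome 5 from 98854415 to 98884396 on GRCm38). It had 143, 194 and 184 CPM in Atrx-cKO replicates 1, 2 and 3 and 178, 230 and 212 CPM in control replicates 1, 2 and 3. The groups overlapped, with Atrx-cKO replicate 1 lowest. Its level was 23.5 ± 3.68 CPM per kilobase in Atrx-cKO and 27.9 ± 3.55 in control libraries (SD, n = 3 each), a log2 fold change of -0.25 (standard error 0.14, edgeR adjusted p = 0.992).

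The osteogenic ligands *Bmp4*, *Bmp6*, *Bmp5*, *Bmp2* and *Bmp7* followed at mean levels of 18.4, 13.3, 12, 11.1 and 5.79 CPM per kilobase. *Bmp2*, which is required for fracture repair, had 29.4, 44.5 and 37.2 CPM in Atrx-cKO and 37.4, 45.2 and 42.7 CPM in control, a log2 fold change of -0.18 (95% interval -0.53 to 0.18). *Bmp4* had 36.4, 44.0 and 44.3 CPM in Atrx-cKO and 42.3, 40.7 and 39.9 CPM in control, and its log2 fold change was 0.02 (95% interval -0.20 to 0.24). Of these ligands *Bmp7* had the most negative estimate, with 16.4, 21.4 and 24.6 CPM in Atrx-cKO beside 22.5, 26 and 28.6 CPM in control and a log2 fold change of -0.31 (95% interval -0.68 to 0.07). All 3 pairs of groups overlapped.

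*Bmp5* and *Bmp6* had log2 fold changes of -0.05 and 0.02, *Gdf10*, at a level of 13.8, had -0.06, and *Bmp8a*, at 10.5, had -0.01. Reads of *Bmp8a* can be shared with its near copy *Bmp8b*, whose own log2 fold change was 0.18, and exons of *Bmp6* overlap those of *Txndc5* on the opposite strand, which had 194 CPM on average, so both values are uncertain. The joint ligands *Gdf5* and *Gdf6* were scarcely present in tibia. *Gdf5* had 0.424 to 0.560 CPM in Atrx-cKO and 0.450 to 0.693 in control, with a log2 fold change of -0.23 (95% interval -0.99 to 0.53). *Gdf6* had 3 to 18 reads in Atrx-cKO and 1 to 7 in control libraries and was not tested. Of the 9 BMP and GDF ligands tested, 2 had positive and 7 negative estimates, with a median of -0.06, none passed the test, and 7 of the 9 had their lowest value of all 6 libraries in Atrx-cKO replicate 1.

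*Bmp1* is a protease, which cleaves chordin and procollagens and is no ligand despite its name (ENSMUSG00000022098, chromosome 14 from 70474558 to 70520234). It had 494, 512 and 541 CPM in Atrx-cKO and 469, 635 and 666 CPM in control, so control replicates 2 and 3 lay above all other libraries and control replicate 1 lay lowest. The level was 58.1 ± 2.68 CPM per kilobase in Atrx-cKO and 66.5 ± 11.9 in control libraries (SD, n = 3 each), a log2 fold change of -0.19 (standard error 0.14, edgeR adjusted p = 0.992).

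*Tgfb1*, the main TGF-beta of bone matrix, was the most abundant of the TGF-beta ligands, and the order *Tgfb1*, *Tgfb3*, *Tgfb2* held in 6 of 6 libraries. *Tgfb1* (ENSMUSG00000002603, chromosome 7 from 25687002 to 25705077) had 261, 247 and 236 CPM in Atrx-cKO and 269, 223 and 219 CPM in control, with groups that overlapped. Its level was 49.2 ± 2.5 CPM per kilobase in Atrx-cKO and 47.0 ± 5.53 in control libraries (SD, n = 3 each), a log2 fold change of 0.06 (standard error 0.10, edgeR adjusted p = 0.992). The ratio of *Tgfb1* to *Tgfb3* per kilobase was 2.63 ± 0.158 in Atrx-cKO and 2.20 ± 0.786 in control (SD, n = 3 each).

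*Tgfb3* had 62.7, 66.8 and 60.6 CPM in Atrx-cKO and 58.1, 83.2 and 86.2 CPM in control, a log2 fold change of -0.26 (95% interval -0.60 to 0.08). As with *Bmp1*, control replicate 1 was the lowest library and control replicates 2 and 3 the highest, and on the summed osteoblast and chondrocyte markers too control replicates 2 and 3 were the highest. The part of those markers in the *Tgfb3* and *Bmp1* values was not tested. Without control replicate 1, DESeq2 gave *Tgfb3* an adjusted p of 0.00098 and *Bmp1* one of 0.0065, with log2 fold changes of -0.42 and -0.33, in a fit that called 566 genes (3.14% of those tested), whereas edgeR gave 0.156 and 0.269 for the same libraries. *Tgfb2*, the scarcest TGF-beta, had 17.6, 22.6 and 12.1 CPM in Atrx-cKO and 33.5, 18.8 and 26.2 CPM in control, the most negative estimate of the pathway at -0.59 (95% interval -1.20 to 0.03). Its groups overlapped, and its coefficient of variation was 29.9% in Atrx-cKO and 28.1% in control.

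Activins are dimers of inhibin beta subunits, of which *Inhbb* was the more abundant per kilobase (ENSMUSG00000037035, chromosome 1 from 119415465 to 119422248). It had 27.3, 35.5 and 28.3 CPM in Atrx-cKO and 32.0, 46.7 and 38.8 CPM in control, and 2 Atrx-cKO libraries lay below every control. The level was 7.13 ± 1.05 CPM per kilobase in Atrx-cKO and 9.21 ± 1.73 in control libraries (SD, n = 3 each), a log2 fold change of -0.37 (standard error 0.16, edgeR adjusted p = 0.992). *Inhba*, which forms activin A, had 63.5, 33.8 and 31.3 CPM in Atrx-cKO and 35.2, 33.8 and 32.6 CPM in control. Atrx-cKO replicate 1 stood apart, the other 5 libraries lying between 31.3 and 35.2 CPM, and the log2 fold change was 0.34 (95% interval -0.25 to 0.92).

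Latent TGF-beta binding proteins hold the latent ligand in the matrix. *Ltbp3* was the most abundant (ENSMUSG00000024940, chromosome 19 from 5740904 to 5758532), with 170, 200 and 192 CPM in Atrx-cKO and 189, 186 and 220 CPM in control. Its level was 20.7 ± 1.67 CPM per kilobase in Atrx-cKO and 21.9 ± 2.09 in control libraries (SD, n = 3 each), a log2 fold change of -0.08 (standard error 0.10, edgeR adjusted p = 0.992). *Ltbp1* and *Ltbp4*, at mean levels of 14.9 and 13.8, had log2 fold changes of 0.02 and -0.05. *Ltbp2*, which does not bind latent TGF-beta itself, had 123, 103 and 117 CPM in Atrx-cKO and 113, 82.6 and 91.2 CPM in control, a log2 fold change of 0.26 (95% interval -0.04 to 0.56). Without control replicate 1, its only control library to overlap Atrx-cKO, DESeq2 gave *Ltbp2* an adjusted p of 0.0217 (3.14% of all genes called) and edgeR 0.254.

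No receptor of either arm passed the test. *Tgfbr1* was the most abundant type I receptor (ENSMUSG00000007613, chromosome 4 from 47353222 to 47414931), with 112, 122 and 130 CPM in Atrx-cKO and 127, 129 and 140 CPM in control. Per kilobase it stood at 18.6 ± 1.37 CPM in Atrx-cKO and 20.3 ± 1.05 in control libraries (SD, n = 3 each), a log2 fold change of -0.12 (standard error 0.086, edgeR adjusted p = 0.992). Its partner *Tgfbr2* was the most abundant type II receptor (ENSMUSG00000032440, chromosome 9 from 116084293 to 116175360), with 201, 201 and 234 CPM in Atrx-cKO and 213, 226 and 255 CPM in control. The level was 25.9 ± 2.34 CPM per kilobase in Atrx-cKO and 28.2 ± 2.62 in control libraries (SD, n = 3 each), a log2 fold change of -0.12 (standard error 0.11, edgeR adjusted p = 0.992). Per kilobase, *Tgfbr2* exceeded *Tgfbr1* by the ratio 1.39 ± 0.0722 in Atrx-cKO and 1.39 ± 0.0592 in control (SD, n = 3 each).

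The BMP type I receptors *Bmpr1a* and *Acvr1*, at mean levels of 11.9 and 8.27 CPM per kilobase, had log2 fold changes of -0.11 and -0.19, with 95% intervals of -0.52 to 0.30 and -0.41 to 0.03. *Acvrl1*, a type I receptor of endothelial cells, had 28.6 to 31.6 CPM in Atrx-cKO and 28.0 to 29.3 CPM in control, and its log2 fold change was 0.08. Over the 6 libraries it was the steadiest of the tested members, its highest value being 1.13 times its lowest. The activin receptor *Acvr1b* had -0.02. *Bmpr1b* was read 0 to 8 times in Atrx-cKO and 1 to 12 times in control libraries, too few to be tested. Among the type II receptors, *Bmpr2*, *Acvr2a* and *Acvr2b* stood at mean levels of 6.30, 3.95 and 1.29 with log2 fold changes of 0.01, -0.06 and -0.01. The receptors gave 1 positive and 4 negative estimates of 5 type I genes and 1 positive and 3 negative of 4 type II genes, with 0 called in either class.

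*Eng* (endoglin) is a co-receptor of BMP and TGF-beta ligands, found above all on endothelial cells (ENSMUSG00000026814, chromosome 2 from 32646595 to 32682669). It had 168, 147 and 146 CPM in Atrx-cKO and 131, 126 and 138 CPM in control, so the lowest Atrx-cKO library lay above the highest control. The level was 37.9 ± 3.02 CPM per kilobase in Atrx-cKO and 32.5 ± 1.48 in control libraries (SD, n = 3 each), a log2 fold change of 0.22 (standard error 0.087, edgeR adjusted p = 0.992), with a 95% interval of 0.02 to 0.43. Its unadjusted p of 0.0348 in the edgeR fit was between 0.0385 and 0.113 when 1 library at a time was left out. Exons of *Eng* overlap *Fpgs* on the opposite strand, which had 18.8 CPM on average.

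The summed CPM of 5 endothelial markers was 514, 527 and 528 in Atrx-cKO and 505, 466 and 465 in control, without overlap, and 2 of the 5 markers, *Kdr* and *Tek*, had groups that did not overlap, while *Pecam1*, *Cdh5* and *Emcn* did overlap. None of the 5 passed an adjusted p of 0.05, 1 (*Tek*) had an unadjusted p under 0.05, and none was at 0 in any library. Per summed endothelial CPM, *Eng* had 0.294 ± 0.0281 in Atrx-cKO (0.276 to 0.326) and 0.275 ± 0.0189 in control (0.259 to 0.296; SD, n = 3 each), and on that scale the groups overlapped. The endothelial sum was itself higher in every Atrx-cKO library, so this division lowers an Atrx-cKO excess of any gene. The other co-receptor, *Tgfbr3* (betaglycan), which presents TGF-beta to its receptors, had 70.8 to 79.7 CPM in Atrx-cKO and 68.8 to 71.7 CPM in control, a log2 fold change of 0.08 (95% interval -0.09 to 0.25).

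The Smads carry the signal inside the cell, and none of the 8 had groups that did not overlap. *Smad5*, of the BMP arm, was the most abundant receptor-regulated Smad (ENSMUSG00000021540, chromosome 13 from 56703010 to 56742377), with 111, 115 and 118 CPM in Atrx-cKO and 103, 122 and 118 CPM in control. Its level was 15.4 ± 0.469 CPM per kilobase in Atrx-cKO and 15.4 ± 1.33 in control libraries (SD, n = 3 each), and the 95% interval of its log2 fold change was -0.20 to 0.20 (edgeR adjusted p = 0.999). *Smad3*, of the TGF-beta arm, came next at a mean level of 12.7 with a log2 fold change of -0.10. *Smad2*, *Smad1* and *Smad9* stood at 5.56, 5.48 and 3.55, with log2 fold changes of -0.06, 0.03 and -0.02.

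*Smad4*, the partner shared by both arms (ENSMUSG00000024515, chromosome 18 from 73639009 to 73703780), had 66.8, 72.1 and 65.9 CPM in Atrx-cKO and 66.0, 74.5 and 66.1 CPM in control. Its level was 18.4 ± 0.902 CPM per kilobase in Atrx-cKO and 18.6 ± 1.32 in control libraries (SD, n = 3 each), a log2 fold change of -0.01 (standard error 0.080, edgeR adjusted p = 0.997). The inhibitory Smads block the receptors in a feedback loop and are themselves induced by the pathway. *Smad6*, which acts on the BMP arm (ENSMUSG00000036867, chromosome 9 from 63953076 to 64022059), had 52.3, 66.1 and 71.8 CPM in Atrx-cKO and 54.1, 66.9 and 72.8 CPM in control. These spread widely within each genotype, with levels of 19.8 ± 3.12 and 20.1 ± 2.98 CPM per kilobase (SD, n = 3 each) and a log2 fold change of -0.03 (standard error 0.15, edgeR adjusted p = 0.997). *Smad7*, which acts on both arms, had 33.5, 40.2 and 39.2 CPM in Atrx-cKO and 30.4, 34 and 39.8 CPM in control, a log2 fold change of 0.12 (95% interval -0.17 to 0.40).

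Among the secreted antagonists and follistatin-related genes, *Fstl1* was the most abundant (ENSMUSG00000022816, chromosome 16 from 37776873 to 37836514). It encodes a secreted glycoprotein of the follistatin family and had 461, 419 and 447 CPM in Atrx-cKO and 351, 428 and 457 CPM in control. The level was 90.0 ± 4.35 CPM per kilobase in Atrx-cKO and 83.8 ± 11.2 in control libraries (SD, n = 3 each), a log2 fold change of 0.10 (standard error 0.12, edgeR adjusted p = 0.992), with control replicate 1 alone below the rest. *Grem1*, which traps BMP2 and BMP4 and marks skeletal stem cells, was among the most variable members, with 40.0, 97.1 and 63.7 CPM in Atrx-cKO and 62.3, 67.3 and 41.4 CPM in control, a log2 fold change of 0.23 (95% interval -0.49 to 0.96). *Chrdl1* had 58.2, 89.2 and 82.7 CPM in Atrx-cKO and 73.2, 59.4 and 64.9 CPM in control, a log2 fold change of 0.22 (95% interval -0.15 to 0.60).

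*Chrd* (chordin), the BMP antagonist that *Bmp1* cleaves, had 5.78, 8.96 and 8.26 CPM in Atrx-cKO and 8.15, 12.1 and 11.9 CPM in control, a log2 fold change of -0.48 (95% interval -0.99 to 0.02). Control replicates 2 and 3 again lay above all others, and control replicate 1 lay among the Atrx-cKO libraries. *Nog* (noggin), which blocks BMP2 and BMP4, was low at a level of 3.38, with 5.45, 6.48 and 5.63 CPM in Atrx-cKO and 5.19, 5.43 and 6.21 CPM in control and a log2 fold change of 0.06. *Fst* and *Fstl3*, which bind activins, stood at 5.24 and 4.25 with log2 fold changes of 0.07 and -0.07. The *Fstl3* value is uncertain, since its exons overlap *Prss57* on the opposite strand, at 27.1 CPM on average. Of the 7 genes of this class, 5 had positive and 2 negative estimates, with a median of 0.07 and 0 called.

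*Id1* to *Id4* encode inhibitors of DNA-binding helix-loop-helix factors, and *Id1*, *Id2* and *Id3* are widely used as immediate targets of BMP signaling. All 4 estimates were positive, with a median of 0.20, and 0 of 4 passed the test. *Id2* (ENSMUSG00000020644, chromosome 12 from 25093799 to 25097140) had 53.2, 53.1 and 49.9 CPM in Atrx-cKO and 45.7, 45.1 and 44.4 CPM in control. The libraries of each genotype lay close together and apart from the other genotype, at 21.3 ± 0.768 CPM per kilobase in Atrx-cKO and 18.5 ± 0.268 in control libraries (SD, n = 3 each), a log2 fold change of 0.21 (standard error 0.068, edgeR adjusted p = 0.992), with a 95% interval of 0.05 to 0.37. *Id2* had the lowest unadjusted p of the pathway, 0.0174 in the edgeR fit, which ranked 250 among all genes tested and ran from 0.0272 to 0.0757 when 1 library at a time was left out.

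*Id1* (ENSMUSG00000042745, chromosome 2 from 152736251 to 152737410) had 28.0, 34.2 and 27.2 CPM in Atrx-cKO and 25.9, 25 and 27.1 CPM in control. The groups did not overlap, but the lowest Atrx-cKO library, replicate 3, and the highest control, replicate 3, were nearly equal. The level was 25.7 ± 3.29 CPM per kilobase in Atrx-cKO and 22.4 ± 0.900 in control libraries (SD, n = 3 each), a log2 fold change of 0.20 (standard error 0.11, edgeR adjusted p = 0.992), which was 0.08 without Atrx-cKO replicate 2. Per summed endothelial CPM, the groups overlapped for both genes, with *Id1* at 0.0570 ± 0.00699 in Atrx-cKO and 0.0544 ± 0.00355 in control and *Id2* at 0.0995 ± 0.00464 and 0.0942 ± 0.00338 (SD, n = 3 each). The endothelial sum was itself higher in Atrx-cKO, so dividing by it lowers an Atrx-cKO excess of any gene. The part of endothelial cells in the *Id1*, *Id2* and *Eng* values was not tested.

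*Id3* was the most abundant gene of the pathway per kilobase, above 98.9% of all genes tested (ENSMUSG00000007872, chromosome 4 from 136143497 to 136145755). It had 221, 292 and 240 CPM in Atrx-cKO and 220, 245 and 275 CPM in control, with groups that overlapped throughout. The level was 140 ± 20.5 CPM per kilobase in Atrx-cKO and 137 ± 15.4 in control libraries (SD, n = 3 each), a log2 fold change of 0.03 (standard error 0.13, edgeR adjusted p = 0.996). *Id3* exceeded *Id1* per kilobase by the ratio 5.45 ± 0.312 in Atrx-cKO and 6.13 ± 0.562 in control (SD, n = 3 each).

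*Id4*, which promotes osteoblast over adipocyte differentiation, had the highest estimate of the pathway and the widest interval (ENSMUSG00000021379, chromosome 13 from 48261228 to 48266026). It had 13.4, 31.7 and 43.0 CPM in Atrx-cKO and 18.6, 20.9 and 22.7 CPM in control, so Atrx-cKO replicate 1 was the lowest of the 6 libraries and Atrx-cKO replicates 2 and 3 were the highest. The level was 7.63 ± 3.89 CPM per kilobase in Atrx-cKO and 5.38 ± 0.534 in control libraries (SD, n = 3 each), a log2 fold change of 0.51 (standard error 0.36, edgeR adjusted p = 0.992). The value depends on single libraries, being 0.12 without Atrx-cKO replicate 3 and 0.85 without Atrx-cKO replicate 1. In the latter case the adjusted p was 0.0022 in DESeq2, in a fit that called 0.205% of all genes, and 0.999 in edgeR.

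**Figure D3:**
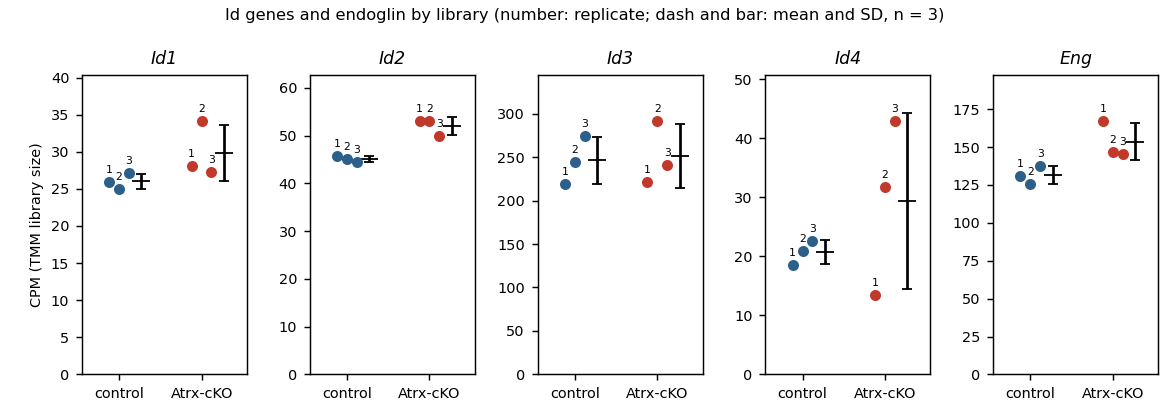
CPM of *Id1*, *Id2*, *Id3*, *Id4* and *Eng* in each library (vertical axes from 0), with the replicate number at each point and the mean and SD of 3 libraries beside each group. The genotypes are apart for *Id2* and *Eng*, nearly touch for *Id1*, overlap for *Id3*, and for *Id4* the Atrx-cKO libraries lie on both sides of the controls.

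The members varied among libraries of 1 genotype as well as between genotypes. The coefficient of variation had a median of 10.1% in Atrx-cKO and 11.5% in control, and the highest of the 6 libraries exceeded the lowest by a median of 1.33-fold, up to 3.21-fold in *Id4*. Of the 49 genes tested, 20 had their lowest value in Atrx-cKO replicate 1 and 11 in control replicate 1, while 12 had their highest in Atrx-cKO replicate 2 and 12 in control replicate 2. Among the 9 BMP and GDF ligands tested, Atrx-cKO replicate 1 was the lowest of its genotype for 7 and control replicate 1 the lowest of its genotype for 6.

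**Figure D4:**
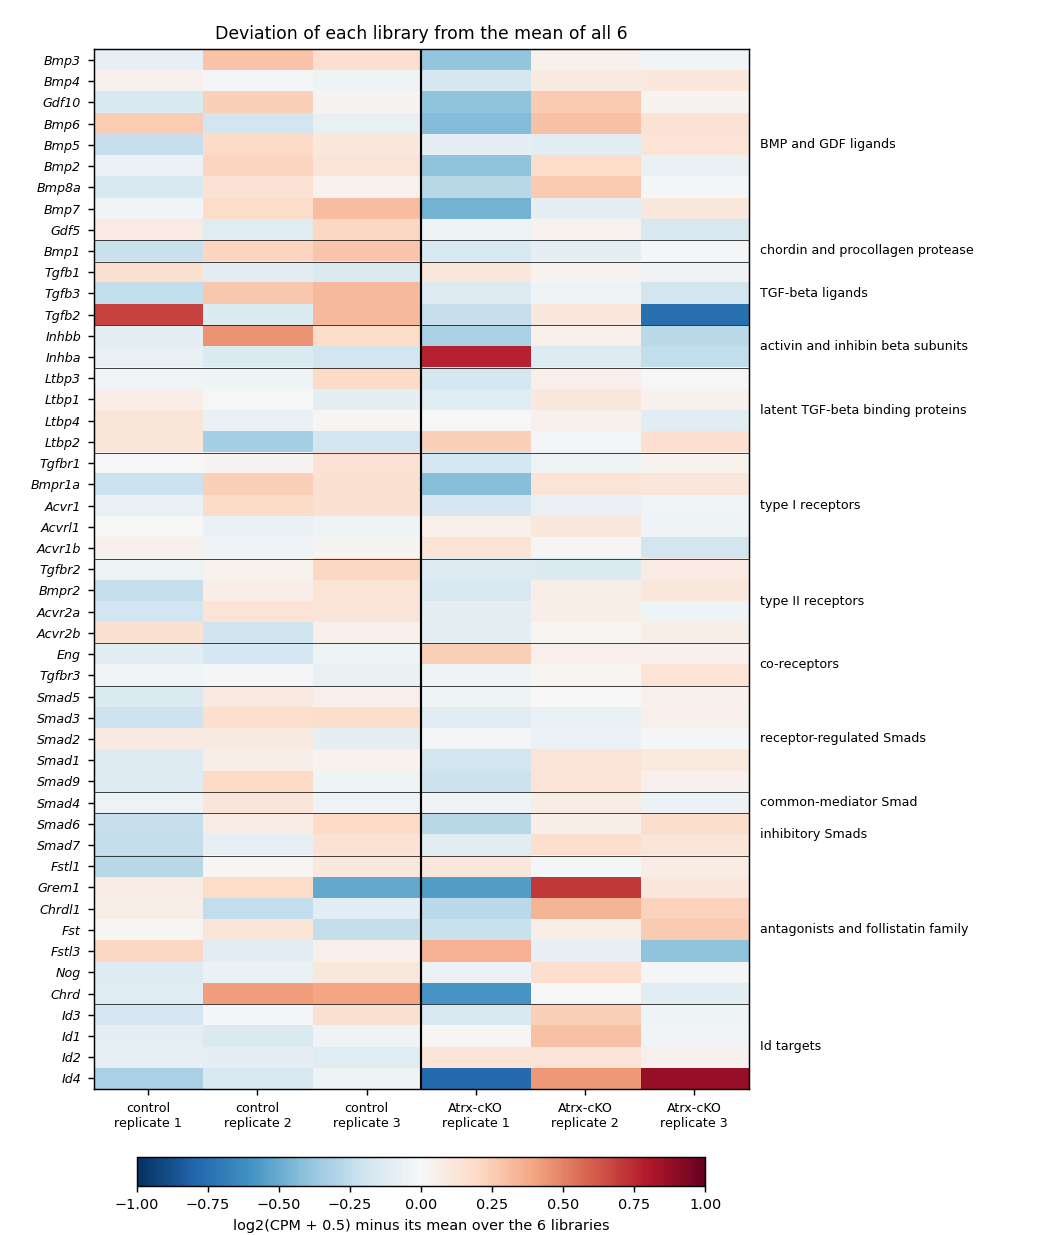
Deviation of each library from the mean of all 6 for the 49 genes tested, as log2(CPM + 0.5) on a color scale from -1 (blue) to 1 (red), with controls left of the vertical line and Atrx-cKO right of it. The largest deviations are in single libraries, as for *Inhba* in Atrx-cKO replicate 1, *Tgfb2* in Atrx-cKO replicate 3 and *Id4* in Atrx-cKO replicates 1 and 3.

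A further 74 genes of the pathway, among them other ligands, antagonists, matrix regulators and target genes, were examined in the same fit. Of these, 64 were tested and 0 passed an adjusted p of 0.05 in edgeR, while 4 were lower and 0 higher at an unadjusted p under 0.05, beside 2.05% and 1.59% of all genes. DESeq2 also called 0 of them at an adjusted p under 0.05 and gave 4 an unadjusted p under 0.05. The estimates were negative for 51 and positive for 13, with a median of -0.10. Over all genes tested, 10064 were negative and 10572 positive, with a median of 0.0050. Genes can vary together across libraries, and the sign count was not tested. *Thbs1* (thrombospondin 1), an activator of latent TGF-beta, had 652, 722 and 771 CPM in Atrx-cKO and 839, 1213 and 1133 CPM in control, a log2 fold change of -0.57 (95% interval -0.92 to -0.22). *Htra1*, a secreted protease that degrades matrix and binds TGF-beta family ligands, had 56.4, 61.4 and 53.3 CPM in Atrx-cKO and 73.8, 81.9 and 114 CPM in control, a log2 fold change of -0.65 (95% interval -1.02 to -0.29). For both genes every Atrx-cKO library lay below every control. Of the 64 further genes tested, groups did not overlap in 3 with Atrx-cKO below and in 2 with Atrx-cKO above. Of all genes tested, 4.01% and 4.3% did so.

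*Smoc2*, a matrix protein related to BMP antagonists, had 56.4, 80.5 and 86.3 CPM in Atrx-cKO and 80.9, 131 and 116 CPM in control, a log2 fold change of -0.56 (95% interval -1.05 to -0.07). Control replicate 1 lay within the range of the Atrx-cKO libraries for *Smoc2*, and it was the lowest control for *Thbs1*, *Htra1* and *Smoc2*, as it was for the summed osteoblast and chondrocyte markers. The part of those markers in these values was not tested. Without control replicate 1, DESeq2 gave 7 of the further genes an adjusted p under 0.05 (3.14% of all genes in that fit). Among them, *Bambi*, *Nbl1*, *Smoc2*, *Thbs1* and *Htra1* were lower in Atrx-cKO, while *Lrrc32* was higher. *Lrrc32* had 59.2, 53.2 and 55.3 CPM in Atrx-cKO and 68.4, 36.7 and 40.7 CPM in control replicates 1, 2 and 3.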

How the data were processed

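Polyadenylated RNA of whole tibia was sequenced from 3 Atrx-cKO and 3 control male mice, and the labels call the libraries strand-specific. The authors deposited raw counts per gene for each library, without normalization. The submitters' notes name GRCm38 and DESeq2. The aligner, the counting program and whether counting used strand are not given in the sources used here, and 18 of the 51 members have an exon that overlaps another gene, 16 of them on the opposite strand. Entries that name no gene (reads on no feature 51.6% to 52.4%, not uniquely aligned 3.69% to 4.56%, ambiguous 0.644% to 0.701%) were left out. Identifiers were matched to GENCODE M21 (55141 of 55401), which gave names, coordinates and exon lengths.

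Counts were fitted with edgeR 4.0.16 in R 4.3.3 (TMM normalization, filterByExpr, glmQLFit and glmQLFTest on genotype alone), and calls were made at a Benjamini-Hochberg adjusted p under 0.05. CPM use TMM library sizes. DESeq2 1.42.0, other scalings and filters, a replicate block and fits without each library were alternatives. DESeq2 without each library was an alternative chosen after seeing the data. The members and lists were chosen with earlier results of these data known. Named in full were the most abundant member of each role, members at an unadjusted p under 0.05, members whose groups did not overlap and the Id genes. Further pathway genes were named at an unadjusted p under 0.05, except 1 that is not reported here. Other genes named with values were chosen after their values were seen. In data simulated for the 20636 genes with 200 changed, edgeR recovered 44 of 94 genes changed by 1 on the log2 scale and 87 of 106 changed by 2, with 12 false calls, and DESeq2 recovered 56 and 91 with 52 false calls. The simulation drew each gene independently and held no changes smaller than 1 on the log2 scale. Its figures therefore do not give the recovery of differences as small as the members' estimates. Libraries of 1 genotype differed by more than sampling noise (chi-square per degree of freedom 15.8 to 137).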

Additional observations from a re-analysis of the deposited data

How the results depend on the processing

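The count of 0 members with an adjusted p under 0.05 held under RLE and upper quartile scaling, without the filter, with at least 10 counts in every library, in DESeq2, with the replicate block and in each edgeR fit without 1 library, where the lowest adjusted p of a member was 0.156 (*Tgfb3*, without control replicate 1). Counts of members at an unadjusted p under 0.05 in edgeR did depend on the setting. They were 3 higher and 4 lower both without the filter and with the replicate block, against 2 and 0 in the main fit. In edgeR fits without 1 library they were 0 to 3 higher and 0 to 7 lower, the 7 without control replicate 1. The share of all genes is not given here for these fits. DESeq2 without 1 library, added after the data were seen, called 0 to 3 members and 0 to 7 of the further pathway genes. These fits called 26 to 566 of all genes, and both the 3 and the 7 came from the fit without control replicate 1, which called 566. The replicate numbers are not stated to pair mice. Deviations of libraries with the same number correlated at -0.025, 0.062 and -0.071, and 2 of the 6 correlated best with their own number. With 3 libraries a group, these correlations cannot exclude a pairing. With that block 0 of all genes passed, against 3 without it, and the block reversed the sign of *Smad5*, to 0.0021 on the log2 scale. Leaving out 1 library reversed the sign in some fits for members close to no difference. Those log2 fold changes ran from -0.070 to 0.045 for *Smad5*, -0.064 to 0.046 for *Smad4*, -0.14 to 0.10 for *Smad6*, -0.10 to 0.11 for *Id3*, -0.00035 to 0.17 for *Fstl1* and -0.0021 to 0.17 for *Tgfb1*. Other named members kept their sign but moved by over 1.5 times in some of these fits, from -0.34 to -0.13 for *Bmp3*, -0.33 to -0.11 for *Bmp1*, -0.51 to -0.22 for *Inhbb*, -0.14 to -0.014 for *Ltbp3*, -0.17 to -0.067 for *Tgfbr1*, -0.20 to -0.062 for *Tgfbr2*, 0.079 to 0.26 for *Id1* and 0.12 to 0.85 for *Id4*. The cause was not tested. With 3 libraries a group, a lack of calls does not show that levels were equal.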
